A study of Mus musculus with 16 samples.

Results

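The RNA levels of 10 genes that mark successive stages of the oligodendrocyte lineage were followed in the hippocampus. The genes were Pdgfra, Cspg4, Olig1, Olig2, Sox10, Nkx2-2, Gpr17, Bcas1, Enpp6 and Myrf. They were chosen by name, from their known place in the lineage and not by a threshold on these values. Earlier results of these data were known at that choice, so counts of the 10 beside shares of all genes are descriptions only. Their rows were taken by gene symbol from the table of raw counts. All 10, of 49315 genes in the table, passed the filter on low counts. The mice were either wild type or knockout for Kcna1, a voltage-gated potassium channel gene whose loss gives epileptic mice, and were given either a standard diet or a ketogenic diet, a fat-rich diet with little carbohydrate that raises ketone bodies. This gave 4 groups of 4 libraries, 1 library per tagged animal: each genotype on each diet. Strain, age, sex, the length of the diet and the extent of the deletion were not given in the sources used here, and no sorting of cells is stated.

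Oligodendrocyte precursors are dividing glial cells spread through the adult brain. Some leave the cycle, pass through a short committed stage, and become oligodendrocytes that wrap axons in myelin. Precursors carry the growth factor receptor PDGFRα (Pdgfra) and the proteoglycan NG2 (Cspg4); the transcription factors Olig1, Olig2 and Sox10 are present from precursor to mature cell; Nkx2-2 is a transcription factor of the step out of the precursor state; Gpr17, Bcas1 and Enpp6 mark the committed and newly formed cell; and Myrf is the transcription factor that switches on myelin genes. In bulk tissue, fewer cells of a stage and less RNA per cell cannot be told apart, and Pdgfra and Cspg4 are not specific to the lineage, since fibroblast-like cells and pericytes, respectively, also express them.

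The sequences just before the RefSeq start sites of 3 of the genes are shown because these genes hold the extremes of what follows. Enpp6 had the greatest diet difference of the 10, and Pdgfra and Cspg4 had none that passed the test. RefSeq start sites matched 5 of the 10 genes (Pdgfra, Cspg4, Olig2, Enpp6 and Nkx2-2). Each line gives the 250 bases before the start, 5′ to 3′ on the gene's strand, from RefSeq on GRCm38.p6, with motif matches in capitals. The regions are chr8:46986637-46986886 for Enpp6, chr5:75152001-75152250 for Pdgfra and chr9:56864854-56865103 for Cspg4, all on the plus strand. RefSeq starts are not always those of the GENCODE M21 annotation used below. The Cspg4 window runs past 56865033, the GENCODE start of that gene. The Olig2 window also reaches into the GENCODE span of its gene, and the Nkx2-2 window lies within that of its gene.
Enpp6: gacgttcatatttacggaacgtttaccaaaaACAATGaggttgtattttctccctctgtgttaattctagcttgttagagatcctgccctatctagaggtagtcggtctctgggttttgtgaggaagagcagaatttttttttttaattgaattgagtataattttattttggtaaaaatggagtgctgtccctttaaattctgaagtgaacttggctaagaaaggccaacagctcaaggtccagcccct
Pdgfra: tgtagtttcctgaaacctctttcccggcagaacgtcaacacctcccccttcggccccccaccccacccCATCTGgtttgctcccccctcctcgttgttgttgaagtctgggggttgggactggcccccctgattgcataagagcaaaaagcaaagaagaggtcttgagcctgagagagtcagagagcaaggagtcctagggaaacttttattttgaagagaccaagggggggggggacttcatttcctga
Cspg4: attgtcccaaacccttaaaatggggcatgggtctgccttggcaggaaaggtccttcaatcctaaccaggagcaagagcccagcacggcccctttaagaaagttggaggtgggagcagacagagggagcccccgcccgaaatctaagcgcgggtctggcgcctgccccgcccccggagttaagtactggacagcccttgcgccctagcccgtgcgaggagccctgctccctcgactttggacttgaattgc
Motifs of factors of the lineage were searched on both strands: the SOX core as ACAAAG or ACAATG, an E-box as CAGCTG or CAGATG, the NKX core AAGTGG, and the MYRF motif as CTGGCAC or CTGGTAC. The Enpp6 window held 1 SOX core, ACAATG, on the plus strand and starting 219 bases before the start. The Pdgfra window held 1 E-box, CAGATG on the minus strand at 182 bases, and the Cspg4 window held none of these letters. Of the other windows, that of Olig2 held a SOX core (68 bases before the start) and that of Nkx2-2 an E-box (220 bases) and an NKX core (198 bases). Among 32851 promoters of the same length, 25.2% held a SOX core, 25.5% an E-box, 14.1% the NKX core and 5.93% a MYRF motif, so matches of this kind were common. GC content was 38.4% in the Enpp6 window, 54.4% in that of Pdgfra and 60.4% in that of Cspg4.

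On GRCm38, by GENCODE M21, the genes lie on 8 different chromosomes. Enpp6 spans positions 46986887 to 47096762 of chromosome 8, Bcas1 positions 170346991 to 170427845 of chromosome 2, Sox10 positions 79154908 to 79165240 of chromosome 15 and Myrf positions 10208272 to 10240748 of chromosome 19. Pdgfra spans positions 75152292 to 75198215 of chromosome 5 and Cspg4 positions 56865033 to 56899870 of chromosome 9. Olig2 (91225457 to 91228677) and Olig1 (91269772 to 91271933) are neighbours on chromosome 16. Nkx2-2 is on chromosome 2 and Gpr17 on chromosome 18.  Whether counting used strand was not given, so reads in the overlap of Gpr17 with the antisense gene Lims2, and of Bcas1 and Nkx2-2 with their antisense transcripts, could not be assigned to one strand. Lims2 held 2404 counts over the 16 libraries, while Gpr17 held 478 to 7701 in each.

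Some libraries stood apart. Libraries held 13440230 to 22309504 counts. Kcna1 lay at 107 to 130 CPM (counts scaled to a common library size) in the 8 wild-type libraries and at 43.4 to 47.2 CPM in 7 of the 8 knockout libraries, but at 82.0 CPM in KC888LL, the library labelled knockout on the standard diet. KC872RL, another library of that group, had the highest value of all 16 for 7 of the 10 genes and the lowest for Pdgfra and Cspg4, where 12.4% of all genes tested were highest and 11.8% lowest in that library. It was also the highest for 7 of 8 cell cycle genes, 7 of 12 other genes of the committed stage, 6 of 14 other precursor genes, 5 of 8 microglia markers, 4 of 7 astrocyte markers and 2 of 15 mature myelin genes, and it was the lowest for none of these. Pdgfra and Cspg4 were thus the lowest there while none of the 14 other precursor genes was. Summed microglia markers were 544 CPM in KC872RL and in KC873RR of the same group, against 240 to 295 CPM in the other 14. KC913RR, knockout on the ketogenic diet, was the lowest of 16 for 7 of the 10 genes and for 15 of 15 mature myelin genes, where it was the lowest for 15.8% of all genes. In 4 libraries the Y-linked gene Ddx3y was above 10 CPM and Xist below 100 CPM, 1 in wild type on each diet, and KC872RL and KC873RR of the knockout on the standard diet. The other 12 had Xist above and Ddx3y below these levels. KC890RL, wild type on the standard diet, held 41.1 CPM of Xist beside 65.1 CPM of Ddx3y. Xist was at 4.43 to 8.84 CPM in KC846L, KC872RL and KC873RR. KC890RL was also the highest of 16 for 10 of 15 mature myelin genes, where it was the highest for 4% of all genes. All 7 hippocampal neuron markers were detected in every library, with summed levels of 1111 to 1395 CPM, and every one of the 10 lineage genes had at least 32 counts in each library.

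**Figure D1:**
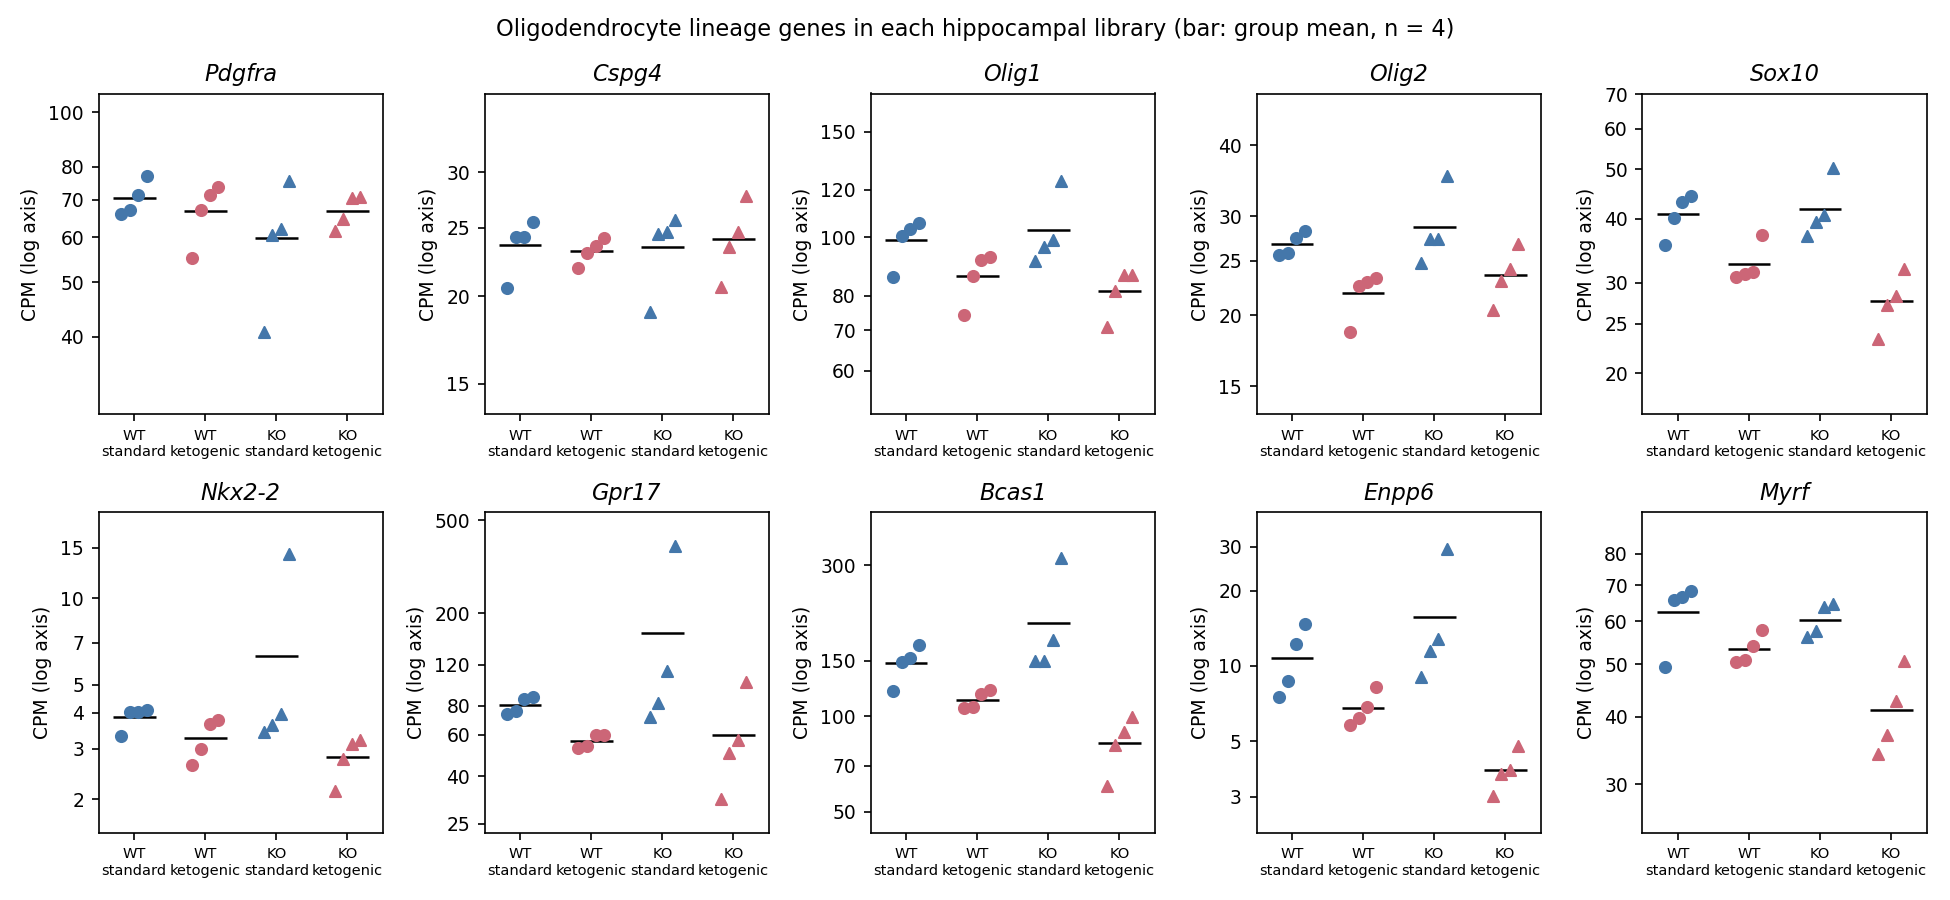
CPM of the 10 genes in each of the 16 libraries on logarithmic axes, with circles for wild type, triangles for knockout (KO), blue for the standard diet and red for the ketogenic diet, and bars at group means (n = 4). Enpp6, Bcas1, Sox10, Myrf, Olig1 and Nkx2-2 were lower in all 4 knockout libraries on the ketogenic diet than in any on the standard diet. This held for 3.72% of all genes. Pdgfra, Cspg4, Olig2 and Gpr17 overlapped. The single high triangle of Gpr17 (387 CPM), Nkx2-2 (14.3 CPM), Bcas1 (315 CPM) and Enpp6 (29.5 CPM) is KC872RL.

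The first comparison asked what the ketogenic diet was accompanied by in the knockout. Of the 10 genes, 4 fell and none rose: Enpp6, Bcas1, Sox10 and Myrf, genes of the committed and differentiating cell together with the factor Sox10. The precursor surface genes Pdgfra and Cspg4 did not pass the test and had log2 fold changes near 0. Over all 17469 genes tested, 1.16% passed in this comparison and 0.95% passed in the lower direction, at an adjusted p under 0.05 (edgeR quasi-likelihood test, Benjamini-Hochberg over all genes). The 10 genes had a median log2 fold change of -0.58, where the median of all genes was 0.01.

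Enpp6 encodes a choline-specific phosphodiesterase found in newly formed oligodendrocytes. It measured 9.04, 11.5, 12.8 and 29.5 CPM in the knockout on the standard diet and 3.01, 3.70, 3.82 and 4.79 CPM on the ketogenic diet. The highest value on the ketogenic diet was thus below the lowest on the standard diet. Its level fell by 2.04 on the log2 scale (standard error 0.34, 95% interval -2.78 to -1.31, edgeR adjusted p = 0.0150), which ranked 32nd of all genes by p. Without KC872RL the log2 fold change was -1.54 (edgeR adjusted p = 0.00645), and without KC913RR it was -1.95 and no longer passed (edgeR adjusted p = 0.0544).

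Bcas1 encodes a protein of the early myelinating oligodendrocyte. It measured 149, 149, 174 and 315 CPM on the standard diet and 60.1, 81.2, 89.6 and 99.9 CPM on the ketogenic diet in the knockout. Again the groups did not overlap, and the 315 CPM was that of KC872RL. The fall was 1.25 on the log2 scale (standard error 0.23, 95% interval -1.74 to -0.77, edgeR adjusted p = 0.0222). The log2 fold change was -0.93 without KC872RL (edgeR adjusted p = 0.0185). The call was lost without KC913RR (-1.13, edgeR adjusted p = 0.0717) and without KC916RRL (-1.29, edgeR adjusted p = 0.0527).

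Gpr17, a G protein-coupled receptor that is switched on in committed precursors and off before myelination, had the widest spread of the 10. The knockout libraries on the standard diet measured 71.9, 82.3, 113 and 387 CPM, and those on the ketogenic diet 32.0, 50.4, 56.8 and 102 CPM. One library on the ketogenic diet, KC934R at 102 CPM, lay above 2 of those on the standard diet. The log2 fold change of -1.44 (standard error 0.50, 95% interval -2.52 to -0.36) did not pass (edgeR adjusted p = 0.172), and without KC872RL it was -0.56 (edgeR adjusted p = 0.525).

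Myrf measured 56.1, 57.5, 63.8 and 64.6 CPM on the standard diet and 34.1, 36.9, 42.7 and 50.6 CPM on the ketogenic diet in the knockout. The groups did not overlap, and KC872RL was not extreme for this gene. Myrf fell by 0.56 on the log2 scale (standard error 0.11, 95% interval -0.80 to -0.32, edgeR adjusted p = 0.0241). The size of the difference varied little when single libraries were left out, from -0.48 without KC913RR to -0.68 without KC935LL. The call, however, was lost without KC872RL (edgeR adjusted p = 0.105), KC873RR (0.0631), KC913RR (0.0645), KC916RRL (0.0556) or KC934R (0.0574), so that it held in 3 of 8 such fits.

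Of the transcription factors Olig1, Olig2, Sox10 and Nkx2-2, Sox10 passed in the knockout with edgeR, and DESeq2 also called Olig1 and Nkx2-2. Sox10, which acts in precursors and again with Myrf in myelinating cells, measured 37.1, 39.5, 40.7 and 50.2 CPM on the standard diet and 23.3, 27.2, 28.3 and 31.9 CPM on the ketogenic diet. The groups did not overlap. It fell by 0.60 on the log2 scale (standard error 0.11, 95% interval -0.82 to -0.38, edgeR adjusted p = 0.0141) and ranked 23rd of all genes by p. Without KC872RL the log2 fold change was -0.50 and just missed the threshold (edgeR adjusted p = 0.0509).

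Olig1 and Olig2, the paired helix-loop-helix factors of the lineage, moved less. Olig1 ranged from 91.4 to 124 CPM on the standard diet and from 71.0 to 86.7 CPM on the ketogenic diet in the knockout, with no overlap, and its log2 fold change of -0.34 (standard error 0.10) did not pass with edgeR (adjusted p = 0.0994) and passed with DESeq2 (adjusted p = 0.0398). Olig2 ranged from 24.8 to 35.3 CPM and from 20.4 to 26.8 CPM, with overlap, for a log2 fold change of -0.28 (standard error 0.11, edgeR adjusted p = 0.181). Nkx2-2 measured 3.44, 3.62, 3.95 and 14.3 CPM on the standard diet and 2.14, 2.76, 3.11 and 3.22 CPM on the ketogenic diet. These did not overlap, but the log2 fold change of -1.18 (standard error 0.38, edgeR adjusted p = 0.137, DESeq2 adjusted p = 0.0367) was -0.38 without KC872RL (edgeR adjusted p = 0.489). DESeq2 called 3.88% of all genes in this comparison, where edgeR called 1.16%.

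Pdgfra, the receptor through which platelet-derived growth factor drives precursor division, measured 40.8, 60.6, 62.1 and 75.5 CPM in the knockout on the standard diet and 61.6, 64.7, 70.4 and 70.7 CPM on the ketogenic diet. The groups overlapped, and the lowest value was that of KC872RL. The log2 fold change was 0.16 (standard error 0.14, 95% interval -0.13 to 0.46, edgeR adjusted p = 0.595), and 0.02 without KC872RL. Cspg4 measured 19.0, 24.5, 24.7 and 25.7 CPM on the standard diet and 20.6, 23.5, 24.7 and 27.7 CPM on the ketogenic diet. Its log2 fold change was 0.04 (standard error 0.10, 95% interval -0.17 to 0.25, edgeR adjusted p = 0.883). A fall of the size measured for Enpp6, Bcas1, Sox10 or Myrf lies outside the 95% interval of both genes.

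Without overlap between the diets in the knockout, 6 of the 10 genes were lower (Enpp6, Bcas1, Sox10, Myrf, Olig1 and Nkx2-2), against 3.72% of all genes. At an unadjusted p under 0.05, 8 of the 10 were lower, against 9.1% of all genes. Without KC888LL, whose Kcna1 level went against its label, the same 4 genes passed, where 6.18% of all genes did, with log2 fold changes of -2.23 (Enpp6), -1.36 (Bcas1), -0.61 (Sox10) and -0.52 (Myrf). The number that passed was 0 when the 8 knockout libraries were fitted alone, where 0.0535% of all genes passed, 0 with Xist level as a covariate (0.0401% of all genes), 0 without KC872RL and KC873RR together (0.0112%), and 1 among the 12 libraries with Xist and without Ddx3y (0.0169%), which left 2 libraries of the knockout on the standard diet. Few genes of any kind passed in these 4 fits, with 2 to 9 in each. The log2 fold changes in them ran from -2.05 to -1.51 for Enpp6, -1.26 to -0.97 for Bcas1, -0.60 to -0.54 for Sox10, and stood at -0.56 in each for Myrf. In that last setting Enpp6 passed, with a log2 fold change of -1.51 (edgeR adjusted p = 0.0408). Animal tag numbers ran from 872 to 893 in the knockout on the standard diet and from 913 to 935 on the ketogenic diet, and in wild type from 890 to 900 and from 842 to 846. Their meaning was not given, and in both genotypes diet cannot be told apart from whatever the number follows. Nor can genotype on the ketogenic diet, and the interaction uses the same groups.

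In wild type, the ketogenic diet was accompanied by no call among the 10 genes by edgeR or DESeq2. Of all genes, 0.0114% passed with edgeR and 0.0687% with DESeq2. All 10 log2 fold changes were below 0, where 50.1% of all genes were. Sox10 measured 35.6, 40.1, 43.1 and 44.4 CPM on the standard diet and 30.8, 31.2, 31.5 and 37.2 CPM on the ketogenic diet, which overlapped by 1 library. Its log2 fold change was -0.32 (standard error 0.10, 95% interval -0.54 to -0.10, edgeR adjusted p = 0.761). Olig2 measured 25.6, 25.8, 27.4 and 28.2 CPM against 18.7, 22.6, 22.9 and 23.3 CPM, without overlap, for a log2 fold change of -0.29 (standard error 0.11, edgeR adjusted p = 0.798). These were the 2 genes of the 10 with an unadjusted p under 0.05, against 3.01% of all genes in the lower direction.

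Among the committed-stage genes in wild type, Gpr17 separated the diets completely. It measured 73.7, 75.8, 85.5 and 87.1 CPM on the standard diet and 52.9, 53.8, 59.7 and 60.1 CPM on the ketogenic diet. Gpr17 and Olig2 were thus the 2 of 10 genes without overlap, against 2.42% of all genes. The log2 fold change of Gpr17 was -0.51 with a standard error of 0.49 (edgeR adjusted p = 0.997) in the fit to all 16 libraries, in which the groups share 1 estimate of spread; fitted on the 8 wild-type libraries alone, Gpr17 passed (edgeR adjusted p = 0.00580), where 0.0661% of all genes did. Enpp6 measured 7.51, 8.69, 12.2 and 14.7 CPM against 5.78, 6.19, 6.86 and 8.20 CPM, for a log2 fold change of -0.68 (standard error 0.33, 95% interval -1.37 to 0.02, edgeR adjusted p = 0.932). Bcas1 stood at -0.39 (standard error 0.22), Myrf at -0.23 (standard error 0.11), Olig1 at -0.20 (standard error 0.10) and Nkx2-2 at -0.25 (standard error 0.39), with edgeR adjusted p from 0.929 to 0.998.

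The precursor surface genes overlapped between diets in wild type too. Pdgfra measured 66.0, 67.2, 71.4 and 77.1 CPM on the standard diet and 55.2, 67.0, 71.3 and 73.6 CPM on the ketogenic diet. Cspg4 measured 20.5, 24.3, 24.3 and 25.5 CPM and 21.95, 23.1, 23.6 and 24.2 CPM. Their log2 fold changes were -0.08 (standard error 0.14, 95% interval -0.37 to 0.21) and -0.03 (standard error 0.10, 95% interval -0.24 to 0.18), both with an edgeR adjusted p of 0.998.

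Averaged over the 2 genotypes, the diet difference passed for the same 4 genes as in the knockout, all lower, where 0.899% of all genes passed and 0.761% passed in the lower direction. This average shares the knockout libraries with the comparison above and is not separate evidence. Sox10 had the smallest p of the 10 and ranked 19th of all genes, with a log2 fold change of -0.46 (standard error 0.07, 95% interval -0.61 to -0.30, edgeR adjusted p = 0.00529). The call held in all 16 fits that left out 1 library and with Xist level as a covariate (edgeR adjusted p = 0.0152), but not among the 12 libraries with Xist and without Ddx3y (edgeR adjusted p = 0.106), where none of the 10 passed. Enpp6 stood at -1.36 (standard error 0.24, edgeR adjusted p = 0.0152), and passed in 15 of 16 such fits, the exception being that without KC846L (edgeR adjusted p = 0.0518).

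Myrf and Bcas1 were less firm in this average. Myrf stood at -0.39 (standard error 0.08, edgeR adjusted p = 0.0286) and passed in 8 of 16 fits, failing without KC842L, KC843RL, KC846L, KC872RL, KC890RL, KC894RLL, KC897RR or KC916RRL, with adjusted p up to 0.0843. Bcas1 stood at -0.82 (standard error 0.16, edgeR adjusted p = 0.0323) and passed in 6 of 16 fits: those without KC872RL, KC873RR, KC888LL, KC893RL, KC900RLL or KC935LL. Its adjusted p reached 0.0848 in the others. Olig1 (-0.27, standard error 0.07, edgeR adjusted p = 0.0781) and Olig2 (-0.29, standard error 0.07, edgeR adjusted p = 0.0793) came next. Olig1 passed without KC900RLL (edgeR adjusted p = 0.0375) and with DESeq2 (adjusted p = 0.0210). Olig2 passed without KC888LL (edgeR adjusted p = 0.0495), without KC913RR (0.0440), with no filter beyond 1 count in some library (0.0372) and with DESeq2 (adjusted p = 0.0269), which called 2.47% of all genes. Pdgfra (0.04, 95% interval -0.16 to 0.25) and Cspg4 (0.01, 95% interval -0.14 to 0.16) lay at 0 within their intervals.

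**Figure D2:**
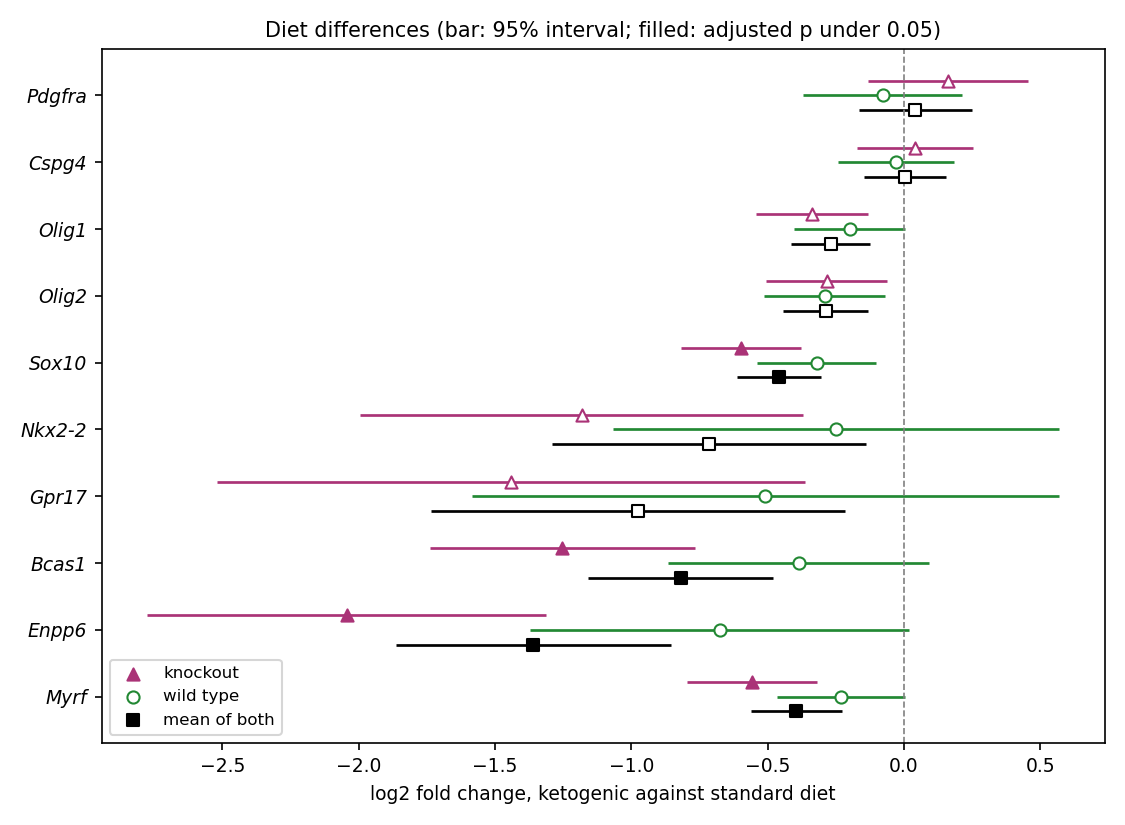
Log2 fold change of each gene, ketogenic against standard diet, with 95% intervals, in the knockout (triangles), in wild type (circles) and averaged over both (squares); filled symbols passed at an adjusted p under 0.05. From precursor genes at the top to Myrf at the bottom, the intervals of Pdgfra and Cspg4 include 0 in every case, and the filled symbols are those of Sox10, Bcas1, Enpp6 and Myrf in the knockout and in the average.

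The knockout and wild type were then compared on each diet. On the standard diet none of the 10 genes passed, where 0.00572% of all genes did. None had an unadjusted p under 0.05, where 14.3% of all genes did. DESeq2 called none of the 10 either, where it called 0.967% of all genes. The 4 highest were Gpr17 at 1.03 (standard error 0.49, edgeR adjusted p = 0.363), Nkx2-2 at 0.72 (0.37, adjusted p = 0.397), Enpp6 at 0.55 (0.31, adjusted p = 0.452) and Bcas1 at 0.42 (0.22, adjusted p = 0.411) on the log2 scale. These are the genes for which KC872RL was far above its group. Without that library the 4 values were 0.15, -0.08, 0.04 and 0.10. Pdgfra, the lowest of the 10, stood at -0.24 (standard error 0.14, edgeR adjusted p = 0.454), at -0.09 without KC872RL and at -0.38 without KC888LL. Without KC888LL, whose Kcna1 level went against its label, none of the 10 passed, where 5.73% of all genes did.

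On the ketogenic diet none of the 10 passed between the genotypes, where 0.0172% of all genes did. DESeq2 called none of them, where it called 0.258% of all genes. At an unadjusted p under 0.05, 3 of the 10 were lower (Myrf, Enpp6 and Sox10), against 3.97% of all genes. Enpp6 and Bcas1 were lower in all 4 knockout than in all 4 wild-type libraries, against 1.98% of all genes. Enpp6 ranged from 3.01 to 4.79 CPM in the knockout and from 5.78 to 8.20 CPM in wild type, for a log2 fold change of -0.82 (standard error 0.35, edgeR adjusted p = 0.506). Bcas1 ranged from 60.1 to 99.9 CPM and from 107 to 121 CPM, for a log2 fold change of -0.45 (standard error 0.22, edgeR adjusted p = 0.569). Myrf had the smallest p of the 10, with a log2 fold change of -0.38 (standard error 0.11, edgeR adjusted p = 0.404). Sox10 stood at -0.24 (standard error 0.11, edgeR adjusted p = 0.511). Tag numbers of the genotypes did not overlap on this diet.

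Whether the diet difference itself differed between the genotypes was tested as an interaction. None of the 10 genes passed with edgeR or DESeq2, where 0% and 0.0401% of all genes did, respectively. The larger values in the knockout were thus not shown to differ from those in wild type. Enpp6 had an interaction of -1.37 (standard error 0.47, 95% interval -2.37 to -0.36, edgeR adjusted p = 0.654) and Bcas1 one of -0.87 (standard error 0.31, 95% interval -1.55 to -0.19, edgeR adjusted p = 0.654). These were the 2 genes of the 10 with an unadjusted p under 0.05, against 7.48% of all genes. Without KC872RL the values were -0.86 and -0.54.

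Differences between genes within a library were then described, since the depth of the library cancels in them. The log2 CPM of Enpp6 minus that of Pdgfra in the knockout was -3.05, -2.42, -2.23 and -0.47 on the standard diet and -4.37, -4.17, -4.01 and -3.85 on the ketogenic diet. Every library on the ketogenic diet was lower than every library on the standard diet. In wild type the same difference was -3.14, -3.02, -2.43 and -2.38 on the standard diet and -3.50, -3.40, -3.23 and -3.01 on the ketogenic diet, where the groups overlapped. In the knockout, group means shifted by -2.06 for Enpp6, -1.40 for Bcas1, -1.39 for Gpr17, -0.79 for Sox10 and -0.76 for Myrf, each relative to Pdgfra. All but Gpr17 separated the diets. These differences reuse the gene levels given above and are not separate evidence. No share over all pairs of genes was computed. Without KC872RL, a setting added after the data were seen, the 5 shifts were -1.53, -0.97, -0.68, -0.53 and -0.57. In wild type these shifts were -0.54, -0.29, -0.42, -0.24 and -0.14, and Gpr17 was the only one of the 5 that separated the diets. The same genes separated when Cspg4 took the place of Pdgfra.

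**Figure D3:**
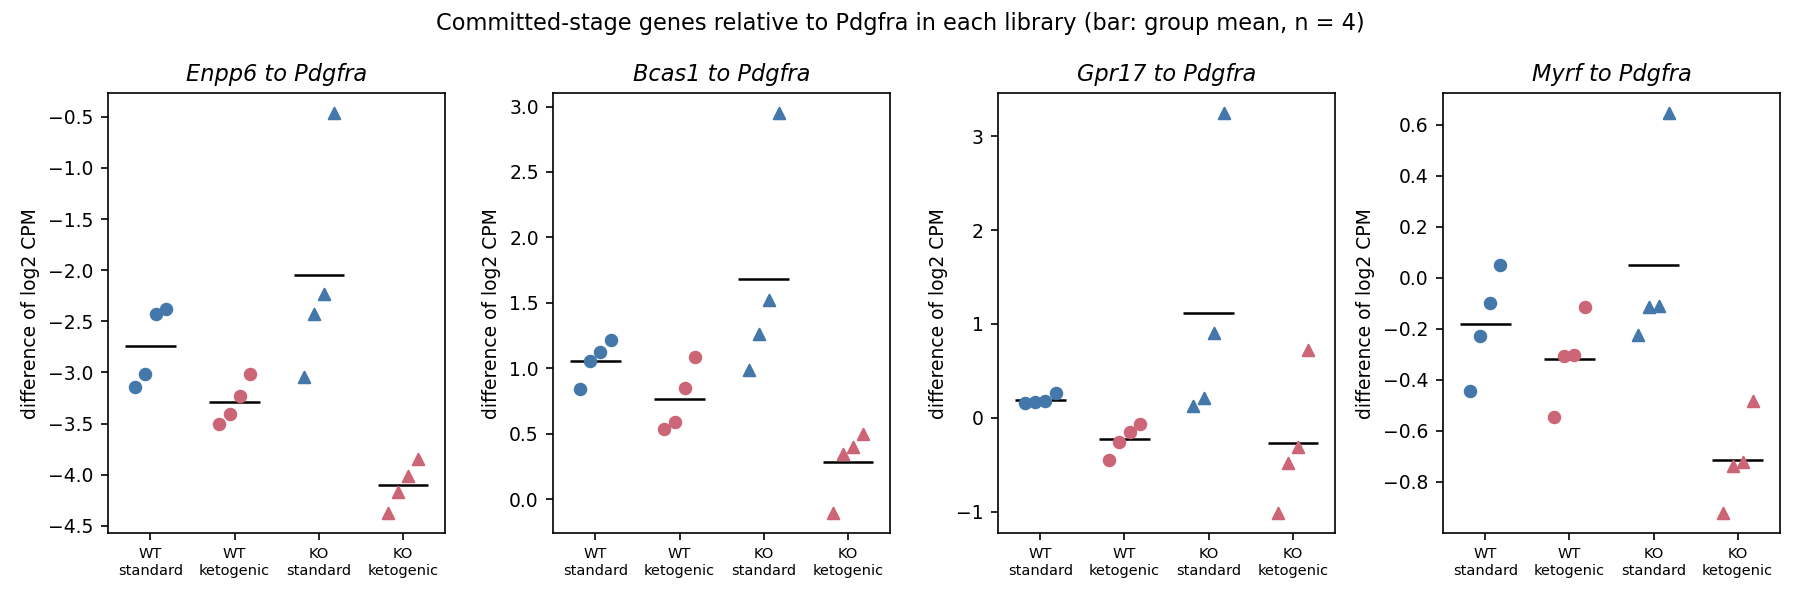
Difference of log2 CPM between each of 4 later-stage genes and Pdgfra in each library, by group, with bars at group means (n = 4; KO, knockout). In the knockout the 4 red triangles of the Enpp6, Bcas1 and Myrf panels lie below every blue triangle, and the Gpr17 panel overlaps; the highest blue triangle in each panel is KC872RL.

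The levels were then set on a scale of gene length, with exon lengths from GENCODE M21. Per kilobase of exon and averaged over the 16 libraries, Olig1 was the most abundant at 42.7 ± 5.95 CPM per kb (SD, n = 16), followed by Bcas1 at 35.8 ± 15.3, Gpr17 at 17.4 ± 15.8, Sox10 at 11.7 ± 2.33 and Olig2 at 9.97 ± 1.49. Then came Pdgfra at 6.58 ± 0.888, Myrf at 6.35 ± 1.21, Cspg4 at 1.98 ± 0.184, Enpp6 at 1.44 ± 0.999 and Nkx2-2 at 1.41 ± 0.967. Neighbours in this order differed by less than the larger of their SDs except at the steps from Bcas1 to Gpr17, from Olig2 to Pdgfra and from Myrf to Cspg4. The order was not the same in every group: in the knockout on the standard diet Bcas1 (52.2) lay above Olig1 (47.5) and both Enpp6 (2.45) and Nkx2-2 (2.20) above Cspg4 (1.97), in CPM per kb. On the standard diet Myrf lay above Pdgfra in both genotypes. On the ketogenic diet Nkx2-2 lay above Enpp6 in both (1.14 against 1.05 CPM per kb in wild type, 0.977 against 0.597 in the knockout), and in the knockout Olig2 (9.33) lay above Sox10 (9.07). No other neighbours changed places. Gpr17, Enpp6, Nkx2-2 and Bcas1 had the greatest SD relative to their mean, and Cspg4 the least.

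Other genes of the lineage were taken by stage. Of 14 further precursor genes, none passed in either genotype or in the average with edgeR, and DESeq2 called 1 in the knockout, as did edgeR without KC893RL, where 3.88% and 1.23% of all genes passed. At an unadjusted p under 0.05, 4 were lower in the knockout and 0 in wild type, against 9.1% and 3.01% of all genes, with median log2 fold changes of -0.15 in the knockout and -0.11 in wild type. Of the 14, 11 lay below 0 in the knockout and 14 in wild type, against 48.5% and 50.1% of all genes. The one with the smallest p over both genotypes was Lhfpl3, a membrane protein gene of precursors, at 20.5 ± 4.05 CPM on the standard and 15.5 ± 2.09 CPM on the ketogenic diet in the knockout (SD, n = 4). The log2 fold change was -0.40 (standard error 0.13, edgeR adjusted p = 0.129).

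Of 12 further genes of the committed and newly formed oligodendrocyte, 3 fell in the knockout and none rose, against 0.95% and 0.206% of all genes; the median was -0.56 in the knockout and -0.13 in wild type, where none passed. Averaged over genotypes, edgeR called none of the 12 and the median was -0.46, with 7 lower at an unadjusted p under 0.05, against 8.13% of all genes. DESeq2 called 6 in that average, where it called 2.47% of all genes. Kif19a, a kinesin gene, fell by 1.47 on the log2 scale in the knockout (standard error 0.28, edgeR adjusted p = 0.0179). The others, named here after their values were seen, were Bmp4, a secreted growth factor of committed precursors, and Tcf7l2, a Wnt pathway transcription factor of newly formed oligodendrocytes. Bmp4 measured 2.80, 2.92, 3.87 and 15.5 CPM in the knockout on the standard diet and 0.74, 1.12, 1.2 and 1.77 CPM on the ketogenic diet, a fall of 2.37 on the log2 scale (standard error 0.50, edgeR adjusted p = 0.0364). Tcf7l2 fell by 1.24 (standard error 0.28, edgeR adjusted p = 0.0418). Without KC872RL, where 0.158% of all genes passed, the median was -0.53 and 1 of the 12 passed, Bmp4, at a log2 fold change of -1.38 (edgeR adjusted p = 0.0367). Kif19a and Tcf7l2 were then at -1.04 and -0.92 (edgeR adjusted p = 0.0501 and 0.152). None passed without KC913RR or without KC916RRL, where 0.49% and 0.496% of all genes did. Without KC934R 2 passed (1.08% of all genes), and without KC888LL 5 passed (6.18% of all genes).

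Of the 3 stage lists, mature myelin genes had the lowest median. In the knockout 11 of 15 fell and all 15 lay below 0, against 0.95% and 48.5% of all genes, with a median of -0.85; in wild type none passed, all 15 lay below 0, 14 were lower at an unadjusted p under 0.05 against 3.01% of all genes, and the median was -0.49. Averaged over genotypes 13 of 15 fell, against 0.761% of all genes. Mag, an adhesion protein of the inner myelin wrap, stood at -0.64 (standard error 0.09, edgeR adjusted p = 0.00529) and Trf, the iron carrier transferrin made by oligodendrocytes, at -0.66 (standard error 0.09, edgeR adjusted p = 0.00202). The median in the knockout stayed between -0.71 and -0.97 whichever library was left out, but the number of the 15 that passed did not. It was 2 without KC872RL (0.158% of all genes passed), 4 without KC873RR (0.26%), 6 without KC913RR (0.49%) or KC916RRL (0.496%) and 7 without KC893RL (1.23%), against the 1.16% of all genes with every library. In the average it was 6 without KC846L (0.293%), 7 without KC890RL (0.287%) or KC894RLL (0.321%) and 8 without KC872RL (0.396%) or KC916RRL (0.344%), against 0.899% with every library. The share of all genes that passed was thus lower too in each of these fits but that without KC893RL.

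**Figure D4:**
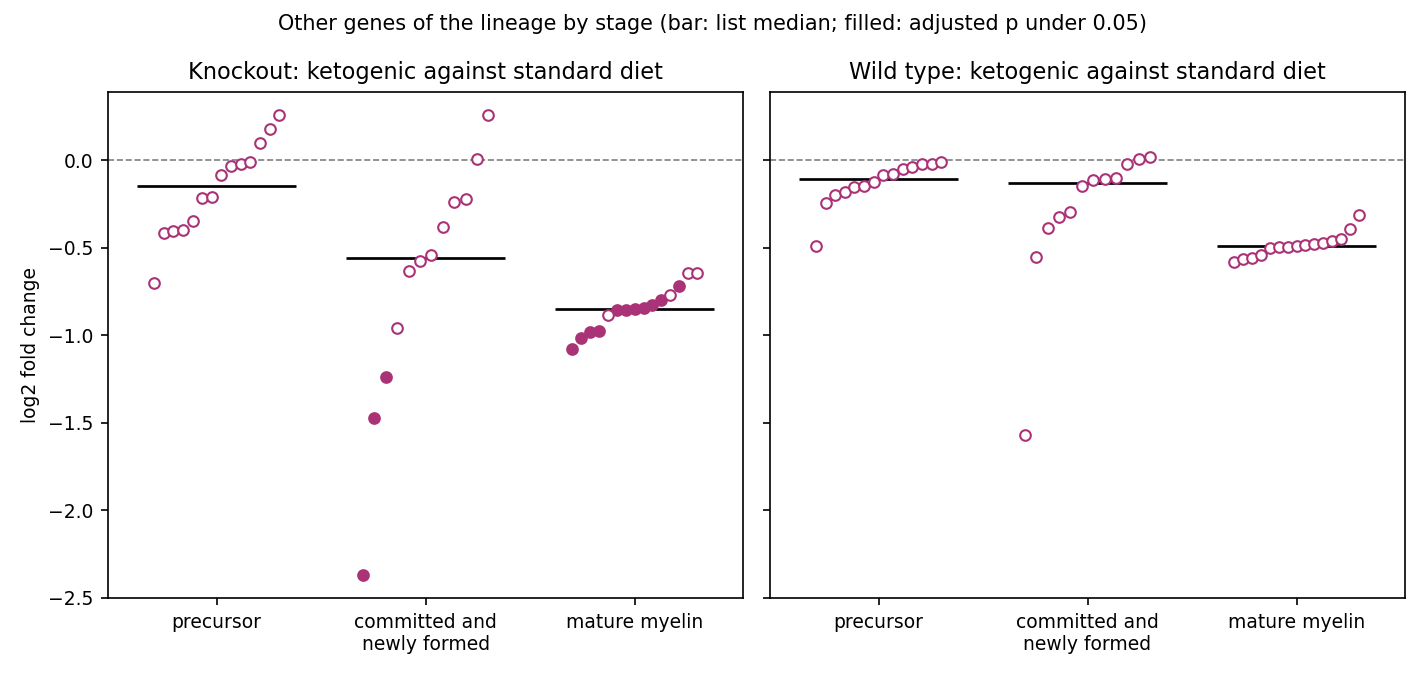
Log2 fold change, ketogenic against standard diet, of the other genes of the lineage in 3 stage lists (14 precursor, 12 committed and newly formed, 15 mature myelin genes), each point 1 gene, bars at list medians, filled where the adjusted p was under 0.05; knockout at left and wild type at right. List medians went from -0.15 through -0.56 to -0.85 in the knockout and from -0.11 through -0.13 to -0.49 in wild type, and filled points occur in the later 2 lists of the knockout.

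Of 11 regulators that promote the lineage, 1 fell and 1 rose in the knockout, against 0.95% and 0.206% of all genes, and none passed in wild type; the medians were -0.08 and 0.03. Nkx6-2, a homeobox factor of oligodendrocytes, fell in the knockout, by 0.79 on the log2 scale (standard error 0.15, edgeR adjusted p = 0.0168; 0.0579 without KC872RL). Its average over genotypes was -0.71 (standard error 0.10, edgeR adjusted p = 0.00266), from 9.77 ± 1.73 to 6.34 ± 0.696 CPM in wild type and from 9.44 ± 0.243 to 5.45 ± 1.11 CPM in the knockout (SD, n = 4), without overlap in either. Smarca4, a chromatin remodelling ATPase, named here after its values were seen, rose in the knockout, by 0.25 (standard error 0.05, edgeR adjusted p = 0.0236), a call lost without KC872RL (0.0787), KC873RR (0.0894), KC913RR (0.0514) or KC916RRL (0.0623). None of 8 genes listed as restraining the lineage and none of 10 signals that act on it passed in a diet comparison. The role of each listed gene was not tested. The smallest p in these lists were those of Gpr37, a receptor that holds back differentiation (average log2 fold change -0.23, edgeR adjusted p = 0.0905), and Cntf, a cytokine (-0.78, edgeR adjusted p = 0.309). Of 8 cell cycle genes tested none passed. Ccnb1, a mitotic cyclin, had the smallest p (average -1.28, edgeR adjusted p = 0.170), and the list's median in the knockout was -0.43 with and -0.02 without KC872RL.

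Markers of other cells were read beside these values. No fibroblast, pericyte, microglia, astrocyte, thalamus, choroid plexus or hippocampal neuron marker passed in a diet comparison at an adjusted p under 0.05. At an unadjusted p under 0.05 in the knockout, 7 of 8 microglia, 3 of 7 thalamus and 2 of 7 astrocyte markers were lower. So were 1 of 6 fibroblast, 1 of 6 choroid plexus and 0 of 6 pericyte markers, each against 9.1% of all genes. Of the 7 neuron markers 0 were lower and 1 was higher, against 9.1% and 7.83% of all genes. Fibroblast markers, relevant to Pdgfra, summed to 39.8 to 107 CPM on the standard and 24.1 to 90.2 CPM on the ketogenic diet, with 5 of 6 log2 fold changes below 0 in the knockout and a median of -0.46, against 48.5% of all genes below 0 (Col1a2, a collagen gene, -0.47, edgeR adjusted p = 0.437). Pericyte markers, relevant to Cspg4, summed to 149 to 198 and 134 to 193 CPM, with 5 of 6 below 0 in the knockout and a median of -0.24 (the one above 0 was Pdgfrb, their growth factor receptor, at 0.15, edgeR adjusted p = 0.344). Microglia markers summed to 256 to 544 and 240 to 287 CPM, with all 8 below 0 in the knockout and a median of -0.70 (Tmem119 -0.50, edgeR adjusted p = 0.0706). Astrocyte markers summed to 1877 to 4627 and 1838 to 3499 CPM, with 5 of 7 below 0 in the knockout and a median of -0.34 (Slc1a3, a glutamate transporter, -0.24, edgeR adjusted p = 0.0904). Thalamus markers, which tell of tissue next to the hippocampus, summed to 156 to 241 and 112 to 212 CPM, with all 7 below 0 in the knockout and a median of -0.47 (Rora, a nuclear receptor, -0.47, edgeR adjusted p = 0.0997). Choroid plexus markers summed to 33.8 to 1061 and 30.7 to 1041 CPM, and in the knockout to 48.3 to 553 CPM on the standard and 31.6 to 53.0 CPM on the ketogenic diet, which overlapped. In the knockout 5 of the 6 lay below 0, with a median of -3.00, 3 were lower without overlap, against 3.72% of all genes, and Otx2, a homeobox factor, stood at -2.72 (standard error 1.27, edgeR adjusted p = 0.298). Folr1 and Otx2 were at a count of 0 in some library, so their fitted fold changes depend on the prior count. Of 7 hippocampal neuron markers 6 lay above 0 in the knockout, with a median of 0.30 (Grik4, a kainate receptor subunit, 0.35, edgeR adjusted p = 0.0535). The part of these markers in the lineage results was not tested.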

How the data were processed

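Per the labels, hippocampal RNA of 16 mice was sequenced. The authors deposited 1 table of raw counts per gene, whole numbers with totals of 13440230 to 22309504 per library. The submitters' processing notes name mm10 and DESeq2 without a role; the aligner, counting program, annotation and use of strand are not given in the sources used here. Columns name an animal tag and a group, but no replicate number, so libraries are called by tag. Litters, batches and dates are not given.

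Counts were tested with edgeR 4.0.16 (R 4.3.3): filterByExpr by group (17469 genes, at least 99.8% of each library's counts), TMM, and a robust quasi-likelihood model with 1 coefficient per group and 12 residual degrees of freedom. The F tests were two-sided, and p was adjusted by Benjamini-Hochberg over all tested genes. Standard errors and 95% intervals came from the F statistic. CPM used effective library sizes, and log2 CPM a prior count of 2. With 4 libraries per group, intervals cover the spread between these libraries only. Alternatives were DESeq2 1.42.0, limma-voom (limma 3.58.1), other size factors, filters and dispersion settings, only the groups compared, Xist level as covariate, subsets of libraries, and leaving out each library. The code was tested on simulated data.

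The genes and lists were chosen with earlier results of these data known. Named genes are the 10 lineage genes, Kcna1 and, from each list, up to 3 called genes in each direction with the smallest p in the average diet comparison, or the 1 of smallest p where none was called. A gene that this rule names is not reported here. Cnksr3 and 9630013A20Rik of the committed list had no row matched by symbol. GENCODE M21 matched 49056 of 49315 identifiers. Promoters are from RefSeq on GRCm38.p6.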

Additional observations from a re-analysis of the deposited data

Results flagged for a closer look

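In 7 of 40 combinations of a gene and a group, 1 library lay far from the other 3 by Dixon's test. For normally distributed values chance gives about 1 in 20. The combinations share libraries and are not independent, and no share over all genes is given. Of the 7, 3 were KC872RL, knockout on the standard diet. It held 387 CPM of Gpr17, where the next library held 113 CPM, 315 CPM of Bcas1, where the next held 174 CPM, and 14.3 CPM of Nkx2-2, where the next held 3.95 CPM. KC900RLL, wild type on the standard diet, was lowest in its group for Myrf at 49.4 CPM, with the nearest library at 65.8 CPM, and for Nkx2-2 at 3.33 CPM, with the nearest at 4.02 CPM. In wild type on the ketogenic diet, KC846L was lowest for Olig2 at 18.7 CPM, with the nearest library at 22.6 CPM, and KC843RL was highest for Sox10 at 37.2 CPM, with the nearest at 31.5 CPM.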

How the results depend on the processing

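Of the 10 genes, 8 (all but Pdgfra and Cspg4) kept a lower level on the ketogenic diet in every alternative of the 3 diet comparisons. The number of the 10 that passed did not. In the knockout it was 4, and 0 when only the groups compared were fitted, 0 with Xist as covariate, 0 without KC872RL and KC873RR, and 1 among libraries with Xist and without Ddx3y; DESeq2 gave 6, and leaving out 1 library gave 1 to 4. In wild type it was 0, and 1 (Gpr17) when only the groups compared were fitted. In the average it was 4, and 2 with Xist as covariate and 0 among libraries with Xist and without Ddx3y; DESeq2 gave 6, and leaving out 1 library gave 1 to 5. It was 0 in every alternative of the genotype comparisons and the interaction. Of all genes, 0.00572% passed between genotypes on the standard diet, 5.73% without KC888LL and 0.967% with DESeq2. On the ketogenic diet 0.0172% passed between genotypes, and 0.258% with DESeq2. In the interaction 0% passed, and 0.0401% with DESeq2. Over the alternatives in the knockout, adjusted p ran from 3.7e-08 to 0.120 for Enpp6, 8.2e-05 to 0.247 for Sox10, 0.000106 to 0.195 for Bcas1 and 0.000608 to 0.510 for Myrf, the lowest with DESeq2. In the average it ran to 0.106 for Sox10, 0.0611 for Enpp6, 0.105 for Bcas1 and 0.450 for Myrf. Some values that passed in no fit changed sign. Among libraries with Xist and without Ddx3y, Pdgfra was -0.0291 in the knockout, 0.0442 in wild type and -0.0733 in the interaction, Cspg4 was -0.0308 in the knockout, 0.0038 in wild type and -0.0135 in the average, and Nkx2-2 between genotypes on the standard diet was -0.0152. Without KC872RL and KC873RR, Pdgfra was -0.0293 in the knockout and -0.0550 in the average, Cspg4 -0.0310 in the knockout and -0.0313 in the average, and Nkx2-2 between genotypes on the standard diet -0.0337. With Xist as covariate, Cspg4 was -0.0109 in the knockout and -0.0165 in the average, and Pdgfra -0.0224 in the average. Leaving out 1 library gave ranges for Cspg4 of -0.0490 to 0.11 in the knockout, -0.0920 to 0.0066 in wild type and -0.0395 to 0.0385 in the average, for Pdgfra of -0.13 to 0.0048 in wild type and -0.0308 to 0.11 in the average, and between genotypes on the standard diet -0.0762 to 0.92 for Nkx2-2 and -0.0145 to 0.17 for Olig2. The causes were not tested. No paired analysis was possible because the columns carry animal tags but no replicate number. Over all genes, 202 passed in the knockout, from 2 without KC872RL and KC873RR to 1096 without KC888LL, and 677 with DESeq2. In the average 157 passed, from 1 among libraries with Xist and without Ddx3y to 457 without KC888LL, and 432 with DESeq2.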
